A study of Mus musculus with 5 samples.

Results

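CpG island shores are the strips on either side of a CpG island, 2000 or 2001 bases long in these files, and the regions described here are the shores that carried substantial methylation. They were chosen by their measured values: an autosomal shore (chromosomes 1 to 19) listed in all 5 libraries was taken when its CpG methylation level, averaged over the libraries, was 30% or more. Of 16299 such shores, 2591 met this rule, or 15.9%, and 13708 did not. The high mean of these shores is therefore their definition and no result. What the rule did not use is how the libraries differ at each shore, what the neighbouring island does, and where the shores lie. A shore low in some libraries could still pass through high levels in others, so differences at such shores are partly shaped by the rule.

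The assay was reduced representation bisulfite sequencing, which reads cytosines in fragments cut by MspI, an enzyme that cuts at CCGG, and so covers the CpG-rich part of the genome. All 5 libraries came from the mouse strain C57BL6. Female embryonic stem cells (female ESC) and parthenogenetic embryonic stem cells (pESC), a line whose genome is of maternal origin alone, were grown on feeder cells in medium with serum and LIF. Primordial germ cells (PGC) were taken with SSEA1 beads from fetal gonads at E12.5, and the sources used here do not give their sex. Germ cell-like cells were induced from each line (ESC-PGCLC and pESC-PGCLC) by 3 to 5 passages in a medium with inhibitors and LIF, 46 h of epiblast-like culture with activin A and bFGF, and 4 days with BMP4, LIF, SCF and EGF. Cells carrying both CD61 and SSEA1 were then sorted.

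Each group had 1 library, so every difference below is between 2 libraries, carries no replicate error and was not tested. Levels are given without read counts, so the depth behind each level is unknown and no counting interval can be given. A difference is called at 25 percentage points or more. Beside each count of calls stands the share over all shores, which include the methylated ones. Of the other shores, 80.6% average under 10% and so can hardly fall by 25 points. A larger share of calls among methylated shores is thus partly fixed by the rule. Of the methylated shores, 4 had a level of exactly 0% or 100% in some library, and 203 overlapped another of them. A further check found 50 that overlapped a listed island, 5 of them at imprinted genes, where they are pointed out; without the 50, 2541 remain.

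CpG islands are stretches dense in CpG that often hold gene starts and are mostly free of methylation. Their shores are less dense in CpG, and in many tissues methylation differs between cell types at shores more often than inside islands. Mouse primordial germ cells pass through a genome-wide loss of methylation, and imprinted regions, where methylation marks the copy inherited from a single parent, are cleared late in it.

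Gene starts were uncommon in methylated shores, and the DNA around those that were found there was poorer in CpG than around starts in other shores. RefSeq windows (GRCm38.p6) from 250 bases before to 50 bases after a gene start lay wholly inside methylated shores 133 times and inside the other shores 1865 times. The windows in methylated shores held a median of 6 CpG (quartiles 4 and 9), those in the other shores 12 (7 and 19), and all 31396 autosomal windows 7. The ratio of observed to expected CpG was 0.288, 0.556 and 0.389 in the same order. CCGG, which reads the same on both strands, was found in 59.4% of the windows in methylated shores, 73.4% of those in other shores and 53.5% of all windows. The 250 bases before 6 of these starts are printed 5′ to 3′ on the gene's strand, with each CpG in capitals, to show the range of CpG content before such starts. Whether these CpG were themselves read is not known, since levels are given per region. They belong to shores described further on: at Peg3, an imprinted gene, and Usp29, which starts in the same shore on the opposite strand, at Dnmt3l, the cofactor of the de novo methyltransferases, and at Lhx9, Tcf21 and Lhx3, transcription factors of the gonad, mesoderm and nervous system.
Peg3: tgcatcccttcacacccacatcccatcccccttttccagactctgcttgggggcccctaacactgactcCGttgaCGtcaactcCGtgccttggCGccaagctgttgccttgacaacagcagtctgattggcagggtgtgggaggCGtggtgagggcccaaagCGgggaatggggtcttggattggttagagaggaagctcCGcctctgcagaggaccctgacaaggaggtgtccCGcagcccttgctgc
Usp29: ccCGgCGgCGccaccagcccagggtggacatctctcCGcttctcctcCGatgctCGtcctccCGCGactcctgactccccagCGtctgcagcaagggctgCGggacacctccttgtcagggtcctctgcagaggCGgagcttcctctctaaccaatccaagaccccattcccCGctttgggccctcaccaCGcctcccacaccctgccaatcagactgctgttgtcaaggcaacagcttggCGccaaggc
Dnmt3l: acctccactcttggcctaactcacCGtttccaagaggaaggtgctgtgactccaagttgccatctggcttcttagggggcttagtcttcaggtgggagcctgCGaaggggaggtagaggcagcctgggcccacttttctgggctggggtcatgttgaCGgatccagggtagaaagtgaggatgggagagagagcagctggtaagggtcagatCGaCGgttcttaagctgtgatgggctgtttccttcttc
Lhx9: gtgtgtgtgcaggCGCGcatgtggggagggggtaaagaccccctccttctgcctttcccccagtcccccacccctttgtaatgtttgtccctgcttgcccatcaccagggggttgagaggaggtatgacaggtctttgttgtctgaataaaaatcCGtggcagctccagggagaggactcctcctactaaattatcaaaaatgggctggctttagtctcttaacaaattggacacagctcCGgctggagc
Tcf21: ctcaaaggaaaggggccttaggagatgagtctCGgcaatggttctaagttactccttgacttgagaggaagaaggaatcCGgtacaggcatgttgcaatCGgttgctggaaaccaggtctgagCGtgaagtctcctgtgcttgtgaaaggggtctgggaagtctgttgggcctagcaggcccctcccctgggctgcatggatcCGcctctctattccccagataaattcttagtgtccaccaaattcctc
Lhx3: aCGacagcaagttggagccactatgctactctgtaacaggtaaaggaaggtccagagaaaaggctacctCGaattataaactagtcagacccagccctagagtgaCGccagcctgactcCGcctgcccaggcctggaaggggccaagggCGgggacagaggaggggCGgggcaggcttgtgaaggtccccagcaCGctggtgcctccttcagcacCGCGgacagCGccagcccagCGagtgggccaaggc
The Peg3 stretch is chr7:6730420-6730669 on the minus strand and holds 8 CpG. The Usp29 stretch, chr7:6730333-6730582 on the plus strand, overlaps it and holds 14, the most of the 6. Dnmt3l (chr10:78042037-78042286, plus strand) and Tcf21 (chr10:22820144-22820393, minus strand) have 5 each, and Lhx9 (chr1:138842445-138842694, minus strand) has 4. Lhx3 (chr2:26208250-26208499, minus strand) holds 11. In the windows that run on to 50 bases after the start, Usp29 held 17 CpG, and Peg3 and Lhx3 held 13 each. These counts are above the upper quartile of 9 for windows in methylated shores. Tcf21 held 8, and Dnmt3l and Lhx9 held 6 each, the median of such windows.

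Methylated shores lay inside genes more often than the other shores. Of the 2591, 66.6% were wholly inside a protein-coding gene, against 56.1% of the others, and 3.86% had no gene within 1000 bp, against 3.42%. Gene starts on chromosome 18 were not used here. A gene start lay in 5.94% of methylated shores and in 14.4% of the others. Among shores whose own island could be read, 59.4% of the methylated and 43.1% of the other shores belonged to an island without a gene start. Seen from the island, 18.7% of shores at islands without a start were methylated. The share was 10.3% for shores upstream of a start, 11.1% for shores on the side of the gene body and 9.93% where starts ran both ways. By chromosome, the methylated share ranged from 9.47% on chromosome 13 to 22.4% on chromosome 15. The median difference of PGC from female ESC was -13.2 points at islands without a start, -12.7 points upstream and -12.6 points on the gene-body side.

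Levels spread from moderate to high. A mean of 30% to 40% was found in 941 of these shores, 40% to 60% in 1316 and 60% or more in 334. By contrast, 80.6% of the other shores stood under 10%. The highest mean, 96.4%, was at a shore beside Gm12501 (chr3:108239993-108241994), with 96.8% in female ESC and 97.6% in pESC, 96.1% in ESC-PGCLC and 98.3% in pESC-PGCLC, and 93.0% in PGC. Next came the shore before the island of Rsph3a, a radial spoke gene of cilia with a close paralog, Rsph3b (81.4%), and a shore at the gene models 9330111N05Rik and Gm8399 (80%). Just inside the threshold were shores at Mgmt (30.03%), Sin3b (30.09%) and Lrpap1 (30.11%). Just outside it were shores at Lss (29.98%), 1700066M21Rik (29.99%) and Zfp423 (29.99%). The line between the sets is thus drawn through a continuous range.

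Female ESC had the highest and PGC the lowest level at most methylated shores. The mean over the 2591 was 53.0% ± 12.46 (SD over shores) in female ESC and 47.4% ± 11.7 in pESC, 45.8% ± 12.2 in ESC-PGCLC and 43.4% ± 11.7 in pESC-PGCLC, and 40.1% ± 10.9 in PGC. Female ESC was the highest of the 5 libraries at 2128 shores (82.1%), and PGC the lowest at 1821 (70.3%). The range over libraries had a median of 14.3 points. It was under 10 points at 500 shores and reached 25 points at 166. These orders and ranges were not counted in the other shores, so whether they are particular to methylated shores is not known. In the other shores the means had the same ends, 7.04% in female ESC and 5.92% in PGC. Their medians did not: they ran from 3.28% in pESC and 3.29% in PGC to 3.54% in pESC-PGCLC. With the CHH level subtracted from each shore, the mean in PGC was 75.2% of that in female ESC at methylated shores and 81.3% at the others.

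Most methylated shores touched an island with almost no methylation. An island listed in all libraries could be paired with 2110 shores, through 1930 islands, and 481 shores had none, 75 of which touch an island listed in fewer libraries. The island's mean was under 10% in 1543 pairs (73.1%), 10% to 30% in 209 and 30% or more in 358. The shore was above its island in all 5 libraries in 1861 pairs (88.2%), below it in all 5 in 132, and neither in 117. The rule places all 132 shores below their islands at islands of 30% or more, since the shores themselves average at least 30%. At islands of that class, 119 shores were above them throughout. The median step from island up to shore was 43.0 points in female ESC and 37.7 in pESC, 35.1 in ESC-PGCLC and 33.1 in pESC-PGCLC, and 30.4 in PGC. The rule fixes that a shore beside an unmethylated island is above it, so only the change of the step over libraries was free to vary.

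**Figure D1:**
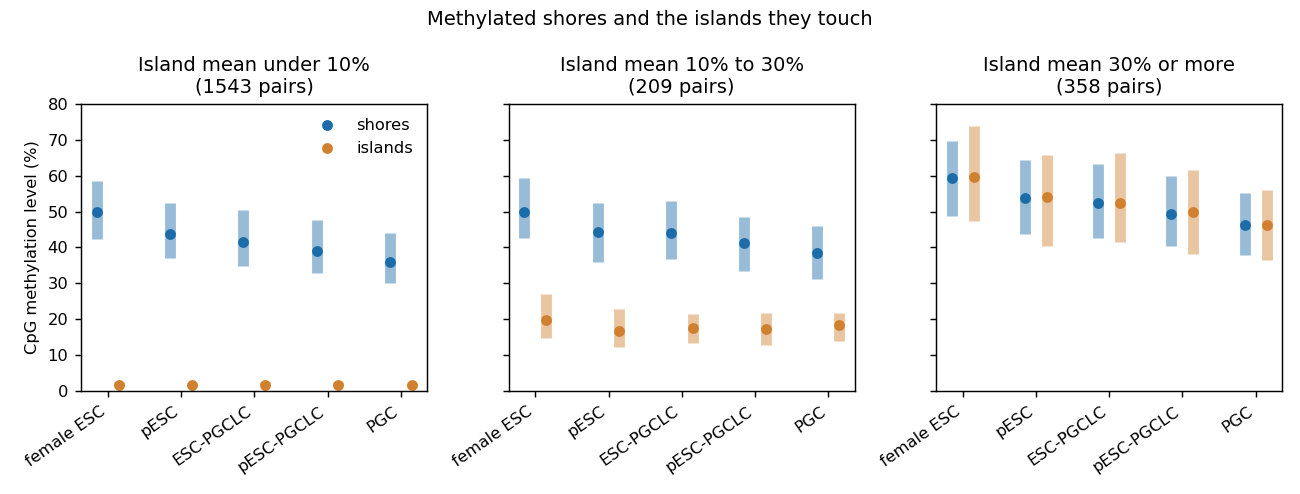
CpG methylation level (percent) of methylated shores (blue) and of the islands they touch (orange) in each library, by the island's mean; points are medians over pairs and bars run from the lower to the upper quartile. Shores beside islands under 10% stand at a median of 49.8% in female ESC and 36.1% in PGC, while those islands stay between 1.60% and 1.79%; at islands of 30% or more, shore and island medians stand side by side in every library.

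The steepest edges reached from an island near 2% to a shore near 80%. At Rsph3a (shore chr17:7943546-7945546) the shore had 90.3% in female ESC and 78.2% in pESC, 79.2% in ESC-PGCLC and 80.6% in pESC-PGCLC, and 78.9% in PGC, and its 738 bp island between 2.0% and 3.3%. Shores at Usp18, an interferon-induced protease gene (chr6:121243706-121245706), and at Rsph3b (chr17:6948787-6950788) stood 77.3 and 77.1 points above their islands on average. In the opposite direction, a shore inside Ppp5c, a phosphatase gene, averaged 32.2% beside an island of 75%. A shore inside Celsr1, a cadherin of planar cell polarity, averaged 34.6% beside 69.2%. A shore in the protocadherin cluster of chromosome 18 averaged 44.0% beside 79.4%.

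Where the island was unmethylated, differences between libraries were seen at the shore and hardly at the island. For PGC against female ESC the median difference at islands under 10% was -13.1 points at the shore and -0.0977 points at the island. At islands of 30% or more the values were -12.6 points at the shore and -13.5 points at the island. The other comparisons had the same form. For pESC against female ESC the medians were -5.67 points at the shore and -0.107 points at the island for islands under 10%, and -5.17 and -6.36 points for islands of 30% or more. In points, the shore differed more than its island in 1872 of 2110 pairs (88.7%) for PGC against female ESC and in 1780 (84.4%) for pESC against female ESC. The number was 1757 (83.3%) for ESC-PGCLC against PGC, 1725 (81.8%) for pESC-PGCLC against PGC, 1748 (82.8%) for pESC-PGCLC against ESC-PGCLC, 1854 (87.9%) for ESC-PGCLC against female ESC, 1756 (83.2%) for pESC-PGCLC against pESC and 1820 (86.3%) for PGC against pESC. An island near 0% in every library can differ by few points, so these counts depend on the scale. By the ratio of levels, with 1% added to each, the shore differed more in 1009 pairs for pESC against female ESC, 1026 for ESC-PGCLC against PGC, 907 for pESC-PGCLC against PGC, 946 for pESC-PGCLC against ESC-PGCLC and 982 for pESC-PGCLC against pESC, the smaller part of the 2110 in these 5 comparisons. It was the larger part in the other 3, with 1490 for PGC against female ESC, 1252 for ESC-PGCLC against female ESC and 1242 for PGC against pESC. Among islands of 30% or more the shore differed more in 47.2% of the 358 pairs for PGC against female ESC and in 43.9% for pESC against female ESC. There the differences of shore and island had a Pearson correlation of 0.393 and 0.502 over pairs, which share their libraries.

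**Figure D2:**
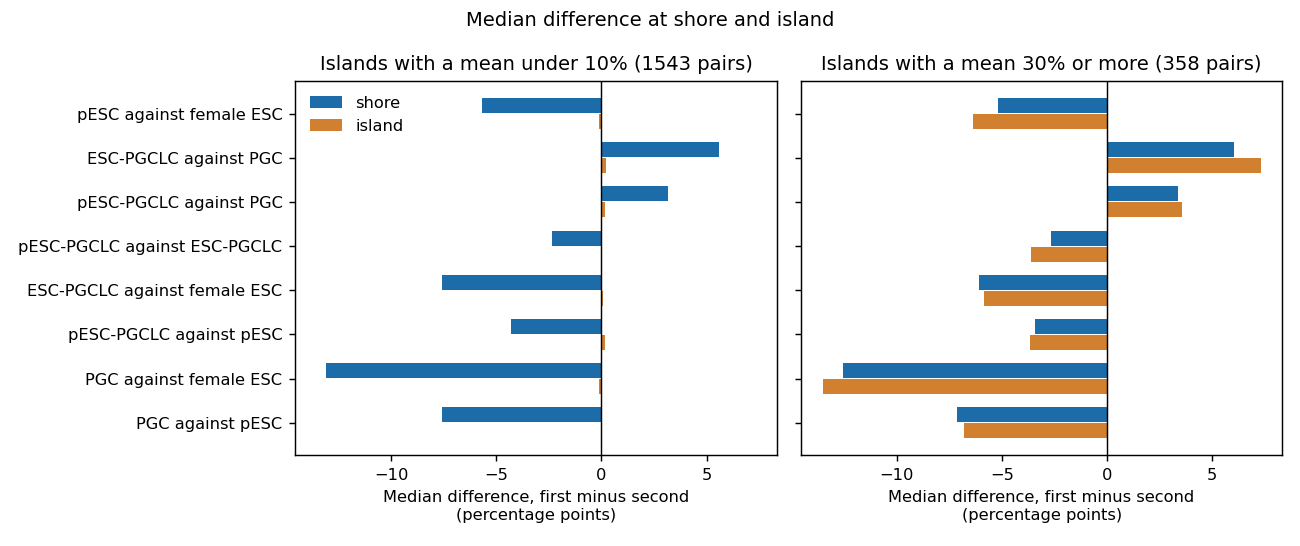
Median difference in CpG methylation (percentage points, first library minus second) at methylated shores (blue) and at their islands (orange), for islands with a mean under 10% (left) and of 30% or more (right). On the left the shore bars reach -13.1 points while the island bars stay near 0; on the right shore and island bars have similar lengths in all 8 comparisons.

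A shore was methylated more often where the opposite shore of its island was. Both shores were listed for 4180 islands: both were methylated at 180, a single shore at 889 and neither at 3111. Of shores before an island, 15.0% were methylated, and 29.0% where the shore after the island was. Where a single shore was methylated, the opposite shore, which is then under 30% by the rule, had a median of 5.49%. It was under 10% in 608 of 889 cases, beside 80.6% of all shores outside the methylated set. Islands of 30% or more had both shores methylated in 66.9% of cases, against 1.69% of islands under 10%. Among islands with both shores methylated, the widest gap was at Zfand2b, which encodes a zinc finger protein. The shore before its island (chr1:75166557-75168557) had 95% in female ESC and 66.1% in pESC, 71.2% in ESC-PGCLC and 62.1% in pESC-PGCLC, and 54.6% in PGC. The shore after it had 54.8%, 38.6%, 26.0%, 23.0% and 24.6% in the same order, and the island between them averaged 2.17%. Shores on either side of an island just outside Zim3, a zinc finger gene near Peg3, averaged 32.7% and 66.3%, and those of Arhgef17 31.5% and 64.9%.

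Between the stem cell lines, methylated shores were mostly lower in pESC. The median difference was -5.66 points (quartiles -9.03 and -2.67), and 2255 shores (87.0%) were lower in pESC, against 61.2% of all 16299 shores. At least 25 points lower were 24 methylated shores (0.926%, against 0.233% of all shores), and at least 25 points higher were 13 (0.502%, against 0.19%). When the ratio of the mean of all shores, 90.5%, was taken out as a common factor, 54.9% were lower and 45.1% higher, with 11 called lower and 15 higher. This factor includes the methylated shores, whose own ratio was 89.4% and whose levels are far above the rest. Taking it out, here and in the other comparisons, thus removes much of their own difference. The largest differences downwards were at Sfswap, a splicing regulator (100% in female ESC and 38.8% in pESC, 68.8% in ESC-PGCLC and 100% in pESC-PGCLC, and 46.2% in PGC), and at Speg, a muscle kinase gene (66.7%, 11.1%, 27.6%, 63.6% and 40% in the same order). A shore at Hdhd3, a phosphatase-like gene, followed with 76.9% in female ESC and 26.6% in pESC. The 3 largest upwards were a shore on chromosome 16 with no gene near it (0% and 59.7%), a shore at Zfp385c (10% and 66.3%) and a shore at Kcnq1ot1 (16.9% and 67.2%). Values of exactly 0% and 100% and round fractions mark several of these, and how many reads lie behind them is unknown.

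Induction was accompanied by lower shores in both lines, with a larger difference in the biparental line. The stem cell libraries were grown on feeder cells in serum and LIF, without the inhibitor medium and the sorting of the germ cell-like cells. No library covers the steps between, so medium, feeder cells, sorting and induction cannot be told apart. ESC-PGCLC was below female ESC at 2357 shores (91.0%, against 61.5% of all shores), with a median difference of -7.07 points (quartiles -10.5 and -3.80). pESC-PGCLC was below pESC at 2147 shores (82.9%, against 53.9%), with a median of -4.05 points (quartiles -6.92 and -1.21). At least 25 points lower were 36 shores in the first comparison (1.39%, against 0.356% of all shores) and 7 in the second (0.270%, against 0.0859%). At least 25 points higher were 8 (0.309%, against 0.129%) and 6 (0.232%, against 0.0552%). With the overall shift taken out, 51.6% and 59.2% were lower, with 13 called lower and 9 higher in the first comparison and 5 and 8 in the second. The comparisons share no library: of 719 shores at least 10 points lower after induction in the biparental line and 250 in the parthenogenetic line, 104 were the same. They are 14.5% of the first list, beside 9.65% of all methylated shores that passed 10 points in the second, and 41.6% of the second list, beside 27.7% of all that passed in the first. The difference between the lines in the size of the change was not tested.

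Single shores differed widely. Kcnn1, a potassium channel gene, had a shore at 100% in female ESC and 60% in pESC, 26.7% in ESC-PGCLC and 44.4% in pESC-PGCLC, and 0% in PGC, beside an island of 46.9% to 71.6%. Stt3b, which encodes a catalytic subunit of oligosaccharyltransferase, had 85.0%, 41.4%, 26.5%, 8.12% and 13.7% in the same order, and Bok, a BCL2 family gene, had 66.7%, 44.4%, 25.9%, 36.4% and 14.3%. Both sat upstream of a gene start beside islands under 2%. In the opposite direction, a shore at Dnah7c, an axonemal dynein gene with close paralogs, had 12.3% in female ESC and 3.06% in pESC but 54.6% in ESC-PGCLC and 48.3% in pESC-PGCLC, and 46.6% in PGC. It was low in both stem cell libraries and high in the other 3. Ube2w, a ubiquitin-conjugating enzyme gene, had 5.16% in female ESC, and 38.3% to 44.7% in the other 4 libraries. In the parthenogenetic line the largest differences downwards after induction were at the gene model Gm1943 (57.1% in pESC and 10% in pESC-PGCLC), in Sgcd, a muscle sarcoglycan gene (62.5% and 25%), and at Csnk1e, a casein kinase gene (67.6% and 30.4%). Those upwards were at Sfswap, Speg and Dnah7c.

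Of the 8 comparisons, pESC-PGCLC against ESC-PGCLC had the smallest median difference, though not with the overall shift taken out, nor the fewest shores 25 points apart. The median difference was -2.55 points (quartiles -5.45 and 0.25), and 1896 shores (73.2%) were lower in pESC-PGCLC, against 51.6% of all shores. With the overall shift taken out 60.9% were lower, with a median of -1.16 points, beside -0.17 points for ESC-PGCLC against female ESC. At least 25 points lower were 6 shores (0.232%, against 0.0675%) and at least 25 points higher 10 (0.386%, against 0.104%), or 3 and 10 with the shift out. The 3 largest upwards were at Kcnq1ot1, Peg3 and Gnas. The 3 largest downwards were at Zfp385c (90.0% in ESC-PGCLC and 45% in pESC-PGCLC), Gipc3, which encodes a scaffold protein of hair cells (58.7% and 22.5%), and Csnk1e (64.6% and 30.4%).

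Both germ cell-like libraries were above PGC at most methylated shores. ESC-PGCLC was lower than PGC at 306 shores (11.8%, against 37.7% of all shores), with a median difference of 5.76 points (quartiles 2.53 and 9.11). pESC-PGCLC was lower at 554 (21.4%, against 37.1%), with a median of 3.20 points (quartiles 0.47 and 5.89). These comparisons share the PGC library. At least 25 points lower were 9 shores in ESC-PGCLC (0.347%, against 0.0982%) and 3 in pESC-PGCLC (0.116%, against 0.0245%). At least 25 points higher were 10 (0.386%, against 0.0798%) and 8 (0.309%, against 0.0736%). With the overall shift taken out, 36.0% and 45.1% of shores were lower, and the calls were 9 lower and 4 higher in ESC-PGCLC and 6 and 5 in pESC-PGCLC. A shore overlapping both Oxct2a and Bmp8a, a BMP ligand gene, was lowest in PGC. It had 70.5% in female ESC and 60.2% in pESC, 74.3% in ESC-PGCLC and 65.4% in pESC-PGCLC, and 20.0% in PGC. A shore in Trio was highest there, with 27.6%, 35.7%, 17.2%, 20.0% and 59.1% in the same order.

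PGC stood furthest below the stem cell libraries. These comparisons were added after values had been seen and share the PGC library with those above. Against female ESC the median difference was -13.1 points (quartiles -17.1 and -9.04), and 2488 shores (96.0%) were lower, against 64.7% of all shores. Of these, 110 were at least 25 points lower (4.25%, against 0.896%) and 12 shores were at least 25 points higher (0.463%, against 0.16%). Against pESC the median was -7.40 points (quartiles -10.4 and -3.99), with 2402 shores lower (92.7%, against 61.9%), 13 at least 25 points lower (0.502%, against 0.123%) and 3 at least 25 points higher (0.116%, against 0.0429%). Mean levels over all shores were 79.1% and 87.4% of the stem cell levels, and with those factors taken out 63.6% and 61.9% of the methylated shores were lower in PGC. The calls were then 12 lower and 17 higher against female ESC, and 3 and 5 against pESC. Besides Dnah7c and Speg, the largest upwards difference from pESC was at Mrto4, a ribosome assembly gene (19.6% in pESC and 51.9% in PGC).

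Relative to their level, the most methylated shores differed least between PGC and the stem cell libraries. To keep the level apart from the difference, shores were placed by their mean in the 3 libraries outside each comparison. In shores of 30% to 40%, the mean in PGC was 73.3% of that in female ESC (955 shores, median difference -11.8 points). In shores of 60% to 70% it was 79.2% (265 shores, -14.4 points), and in those of 70% or more 85.7% (73 shores, -11.7 points). For ESC-PGCLC against female ESC the same bands gave 83.8%, 92.4% and 96.4%, the last over 38 shores, and for pESC against female ESC 88.0%, 93.4% and 94.2%, the last over 40. pESC-PGCLC against ESC-PGCLC lay between 94.2% and 96.4% over the 5 bands.

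**Figure D3:**
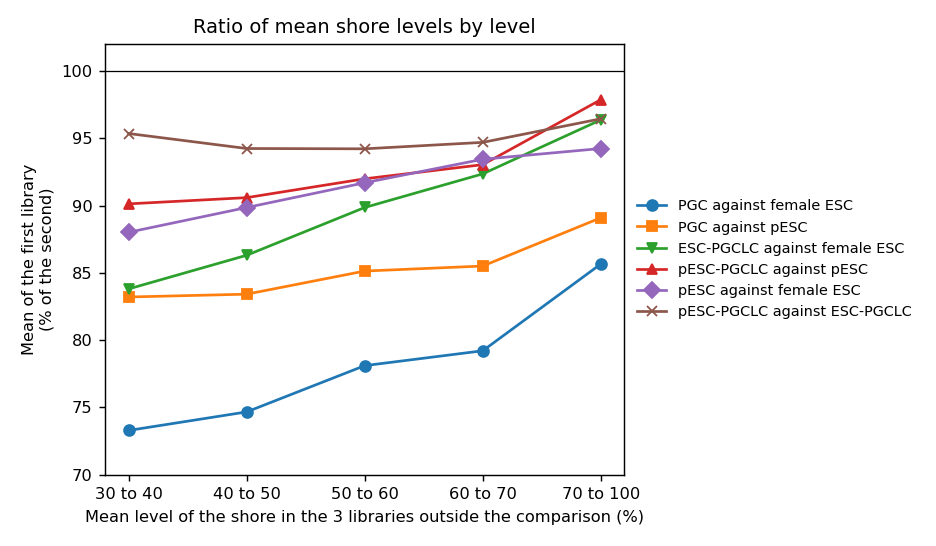
Mean level of the first library as percent of the second (vertical axis, starting at 70%), for autosomal shores in bands of their mean level in the 3 libraries outside the comparison (horizontal axis); each line is a comparison. The line of PGC against female ESC is the lowest in each band and runs from 73.3% to 85.7%, and that of pESC-PGCLC against ESC-PGCLC stays between 94.2% and 96.4%.

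Several of the large differences in the other direction lay at imprinted genes. The list of maternally methylated imprinted genes and their host genes touched 40 shores, of which 16 were methylated, a larger share than the 15.9% of all shores. The list of paternally methylated ones touched 5, of which 0 were. Of the 16, 10 stood higher in pESC than they did in female ESC, beside 12.9% of all methylated shores. By at least 25 points it was 7, beside 0.502% of all. The median difference was 14.0 points beside -5.66 points over all methylated shores. The same 7 were at least 25 points higher in pESC-PGCLC than in ESC-PGCLC, beside 0.386% of all methylated shores. They made up 7 of the 13 methylated shores called higher in pESC and 7 of the 10 called higher in pESC-PGCLC, and these comparisons share no library. These differences restate at shores what is seen at imprinted islands, and the list was drawn with island values of these libraries known. The rule also favours them, since its mean includes the parthenogenetic libraries and PGC. At the called shores of Nap1l5, Kcnq1ot1 and Gnas both biparental libraries were under 30%. Whether the remaining shores of the list go the same way was not examined.

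Of the 7, 2 lay clear of any listed island, those at Peg13 and Nap1l5. With all shores that overlap an island left out, the imprinted list held 2 of the 8 shores called higher in pESC and 2 of the 5 called higher in pESC-PGCLC. Peg13, a noncoding RNA gene within Trappc9, had a shore (chr15:72810123-72812124) at 38.3% in female ESC and 67.7% in pESC, 25.3% in ESC-PGCLC and 67.5% in pESC-PGCLC, and 55.1% in PGC. Its island had 36.9%, 77.8%, 33.0%, 74.2% and 63.2% in the same order. Nap1l5, an intronless gene within Herc3, had a shore (chr6:58904722-58906722) at 24.2%, 51.5%, 11.5%, 43.9% and 40%, beside an island at 22.8%, 56.1%, 14.5%, 53.4% and 46.0%. In each of these pairs, shore and island were high in both libraries of the parthenogenetic line, low in both of the biparental line, and PGC lay in between.

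The other 5 overlapped an island, so their levels are partly, and for a shore in Gnas wholly, island levels. Peg3, which shares its start region with Usp29, had a shore (chr7:6729785-6731786) at 36.2% in female ESC and 65.7% in pESC, 12.2% in ESC-PGCLC and 58.8% in pESC-PGCLC, and 50.3% in PGC. This is the shore that holds the Peg3 sequence printed above. Kcnq1ot1, an antisense RNA gene within Kcnq1, had a shore containing an island (chr7:143294312-143296312) at 16.9%, 67.2%, 20.7%, 74.3% and 61.4% in the same order. The shore before that island (chr7:143293403-143295403) is clear of it and differed less, with 26.3%, 50.0%, 37.5%, 40% and 38.5%. Gnas, the gene of a G protein subunit, had 3 such shores, the middle of them overlapping both others. Their levels were between 19.7% and 24.6% in female ESC and between 58.4% and 62.9% in pESC. They had between 13.2% and 17.8% in ESC-PGCLC, between 56.0% and 58.6% in pESC-PGCLC and between 48.1% and 51.5% in PGC. The last of these shores (chr2:174298745-174300745) had the same level as the island it overlaps (chr2:174298463-174300644) in every library. It thus restates that island and is no separate shore value.

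**Figure D4:**
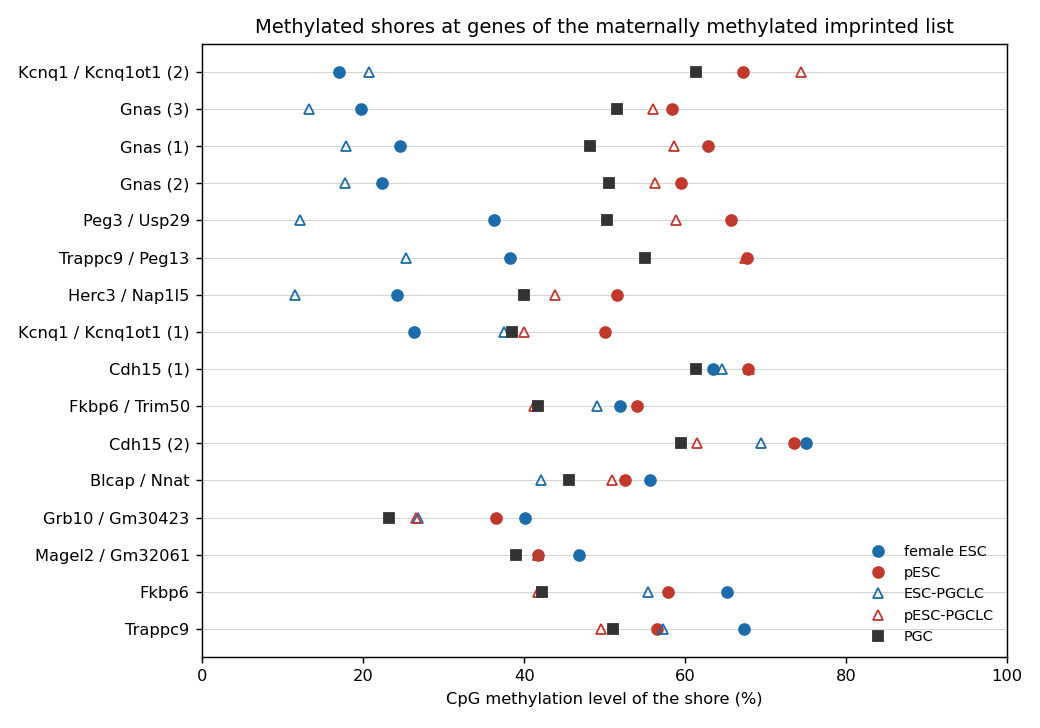
CpG methylation level (percent, horizontal axis) of the 16 methylated shores at genes of the maternally methylated imprinted list, in each of the 5 libraries; rows are shores, ordered by pESC minus female ESC, with up to 2 gene names each. In the 7 uppermost rows, from Kcnq1ot1 to Nap1l5, PGC (black) lies between female ESC and pESC. There each library of the parthenogenetic line (red) stands at least 25 points to the right of the library of the same stage in the biparental line (blue). In the lower rows no red mark stands that far to the right of its blue counterpart.

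All 16 imprinted shores were lower in PGC than in pESC, with a median difference of -11.5 points beside -7.40 points over all methylated shores, of which 92.7% were lower. Against female ESC, 8 of the 16 were higher in PGC, beside 3.98% of all methylated shores. By at least 25 points it was 3, beside 0.463% of all. Apart from the shore before the Kcnq1ot1 island, those not called differed between the stem cell lines by at most -10.8 points, at a distant shore in Trappc9. At Cdh15, a cadherin gene, the shores on either side of an island had 63.4% and 75.1% in female ESC, 67.8% and 73.5% in pESC, and 61.4% and 59.5% in PGC. Those of the island in Fkbp6, a meiotic chaperone gene, had 65.2% and 51.9% in female ESC, 57.9% and 54.0% in pESC and 42.2% and 41.7% in PGC. Blcap and Nnat shared a shore at 55.6% in female ESC and 52.5% in pESC, beside an island higher in pESC (25.5% against 15.1%). Grb10 (40.1% and 36.5%), Magel2 (46.8% and 41.8%) and that shore in Trappc9 (67.4% and 56.6%) were lower in pESC.

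Across the lines, a further 3 shores outside the imprinted list were at least 10 points higher in both pESC and pESC-PGCLC than in their biparental counterparts. In all, 42 and 45 shores were at least 10 points higher and 10 were so in both, 23.8% of the first list and 22.2% of the second, beside 1.74% and 1.62% of all methylated shores. A shore of Rab34, a small GTPase gene of the cilium, had 52.0% in female ESC and 73.9% in pESC, 60.9% in ESC-PGCLC and 71.8% in pESC-PGCLC, and 53.1% in PGC. The others were at Pheta2, an endosomal adaptor gene (44.0%, 56.8%, 44.5%, 62.2% and 47.8%), and Gpr26, an orphan receptor gene (36.4%, 47.1%, 17.4%, 40% and 28.0%). All 3 had islands under 10% in every library, and they were named after their values were seen. In the lower direction, 482 and 158 shores passed 10 points and 54 were shared, 11.2% and 34.2% of the lists, beside 6.10% and 18.6% of all methylated shores.

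Germline genes, many of which are silenced by promoter methylation in somatic cells, had 18 methylated shores among 38, a larger share than the 15.9% of all shores. The list was chosen with earlier results of these data known. In PGC all 18 were lower than in female ESC and than in pESC, with median differences of -12.1 and -6.67 points, near the values of all methylated shores (96.0% and 92.7% lower, medians of -13.1 and -7.40 points). The list median was 50.6% in female ESC and 44.3% in pESC, 52.1% in ESC-PGCLC and 40% in pESC-PGCLC, and 37.1% in PGC. All 18 were higher in ESC-PGCLC than in PGC, as were 88.1% of all methylated shores. Smc1b, the meiotic cohesin gene, had a shore (chr15:85129664-85131664) at 80% in female ESC and 46.3% in pESC, 51.9% in ESC-PGCLC and 45.8% in pESC-PGCLC, and 29.8% in PGC, beside an island of 11.6% to 15.0%. Tuba3a, a testis tubulin gene, had 58.2%, 47.7%, 55.5%, 40.9% and 34%, and its island moved in parallel, from 47.3% in female ESC to 30.6% in PGC. Tdrd12, a piRNA pathway gene, had 68.1%, 56.8%, 56.8%, 44.2% and 51.8%.

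At genes of other cell types that the samples could hold, methylated shores were likewise lower in PGC than in female ESC. Gonadal somatic genes had 11 methylated shores among 67, beside 15.9% of all shores. All 11 were lower in PGC than in female ESC, as were 96.0% of all methylated shores, with a median of -19.9 points beside -13.1. A shore of Lhx9 (chr1:138841603-138843603), whose start sequence is printed above, had 70% in female ESC and 58.2% in pESC, 55.1% in ESC-PGCLC and 47.9% in pESC-PGCLC, and 41.8% in PGC. The Tcf21 shore had 46.2%, 36.3%, 35%, 40.6% and 23.7%. Fibroblast genes, as markers of feeder cells, had 6 methylated shores among 15, all lower in PGC than in female ESC (96.0% of all methylated shores were) with a median of -16.6 points. All 6 were lower in pESC too (87.0% of all were), with a median of -6.14 points beside -5.66. Twist2, a mesenchymal factor, had 84.3%, 66.2%, 71.3%, 68.9% and 63.8%, and Col5a1, a collagen gene, 59.0%, 52.3%, 52.1%, 42.1% and 35.2%. Trophoblast genes had 2 among 27, both at Krt18, a keratin gene, and both lower in PGC. These levels are of DNA methylation, and the share of other cells in each library was not measured.

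Early regulators had few methylated shores, beside 15.9% of all shores, with the exception of the DNA methylation machinery. Pluripotency and germ cell specification genes had 1 among 32, in Sall4, which varied little, with 41.1% in female ESC and 34.5% in pESC, 36.0% in ESC-PGCLC and 34.6% in pESC-PGCLC, and 37.6% in PGC. Primed epiblast genes had 1 among 21, upstream of Dnmt3b, a de novo methyltransferase gene, with 40.2%, 33.3%, 29.2%, 27.3% and 22.3%. The list of the DNA methylation machinery had 5 among 24. All 5 were lower than in female ESC in pESC, ESC-PGCLC and PGC, as were 87.0%, 91.0% and 96.0% of all methylated shores. Among them a shore overlapping both Dnmt3l and Aire had 39.0%, 33.7%, 24.9%, 30.3% and 23.7%. A shore of Tet3, a dioxygenase gene of demethylation, had 45.6%, 41.4%, 31.9%, 33.9% and 36.0%. Hox genes had 4 among 112, all lower in PGC than in female ESC, as were 96.0% of all methylated shores (median -19.3 points beside -13.1), such as a shore at Hoxd3 and Hoxd4 with 50.5%, 39.8%, 33.6%, 35% and 28.3%. A shore in Hoxd3 had 43.5% in female ESC and 24.0% in PGC, and a shore at Hoxa3 and Hoxa6 50.7% and 31.6%.

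Neural developmental genes had 6 among 187, all lower in pESC than in female ESC, as were 87.0% of all methylated shores (median -12.1 points beside -5.66). The Lhx3 shore had 53.6% in female ESC and 39.9% in pESC, 39.3% in ESC-PGCLC and 32.4% in pESC-PGCLC, and 27.8% in PGC. Sox10, a neural crest factor gene, departed from this order, with 53.6%, 27.8%, 45.6%, 47.1% and 43.5%, lowest in pESC. Tbx4, a limb factor gene, had 49.6%, 38.6%, 41.2%, 32.9% and 28.5%. Clustered protocadherins had 10 among 38, tied through gene models that span the cluster on chromosome 18, and all 10 were lower in PGC than in female ESC, with a median of -13.8 points, near the 96.0% and -13.1 points of all methylated shores. Neural and Hox lists had few methylated shores beside 15.9% of all shores, and the protocadherin list had a larger share.

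Non-CpG levels, which the rule did not use, were low everywhere and slightly above those of the other shores. The mean CHG level of methylated shores was 0.845% in female ESC and 0.830% in pESC, 0.997% in ESC-PGCLC and 0.972% in pESC-PGCLC, and 0.901% in PGC. In the other shores it was 0.688%, 0.688%, 0.844%, 0.814% and 0.766%. CHH levels were 0.638%, 0.620%, 0.778%, 0.757% and 0.708% in methylated shores and 0.588%, 0.571%, 0.726%, 0.704% and 0.669% in the others. Their order over libraries differs from that of CpG: the germ cell-like libraries were highest and pESC lowest. Whether these cytosines were methylated or unconverted was not tested.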

How the data were processed

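Genomic DNA of 5 mouse libraries was cut with MspI, treated with bisulfite and sequenced in pairs, per the labels' protocols. Bismark 0.16.3, Bowtie2 and the build mm10 are named in the submitters' processing notes, with no roles; the sources used here give no filter on coverage. Each deposited value is a fraction, the authors' methylation level of a region in a cytosine context; values are printed as percent. They come without read counts, so no test or interval was possible, and depth is unknown. Shores span 2000 or 2001 bases, and coordinates are the authors', whose counting base is not stated.

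A shore was paired with the island whose end or start it touches. Differences were taken in percentage points and called at 25; backgrounds are all 16299 autosomal shores. RefSeq (GRCm38.p6) gave genes overlapping a shore or within 1000 bp, gene starts and sequences; windows on opposite strands that overlap agreed in all 1588 cases. The text names, by comparison, the 3 largest differences in each direction, all imprinted shores, up to 3 per other list by range over libraries, the 3 widest pairs each way, 3 islands with unlike shores, 3 shores on each side of the threshold and the 3 highest; a few are described in part. Members and lists were chosen with earlier results of these data known. The counting step was run on simulated levels with known changes and an assumed depth. This checks the counting alone and gives no error rate for these data. Python 3.11.15, pandas 2.3.3, numpy 2.4.6 and matplotlib 3.10.9 were used.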

Additional observations from a re-analysis of the deposited data

Results flagged for a closer look

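At 5 of the named shores the induction change ran in opposite directions in the lines, by more than 10 points each; the difference between the lines was not tested, and each line has 1 library per stage. At Sfswap and Gm40332 (chr5:129498934-129500934) ESC-PGCLC minus female ESC was -31.25 points and pESC-PGCLC minus pESC 61.2 points. At Speg (chr1:75385180-75387181) these were -39.1 and 52.5 points. At a shore on chromosome 16 with no gene (chr16:84700979-84702979) they were 32.8 and -22.5 points. At Zfp385c and C11H17orf113 (chr11:100638048-100640048) they were 80 and -21.3 points. At the protocadherin gene models Gm37013 and Gm38666 (chr18:36978148-36980148) they were -24 and 11.1 points. Sfswap, Speg, the chromosome 16 shore and Zfp385c were named for large differences between the stem cell lines, whose levels enter both induction changes. Opposite changes there are thus partly fixed by the choice. Female ESC stood at 100% at Sfswap and at 0% at the chromosome 16 shore, with read counts unknown. Over all methylated shores, 16 had opposite changes of at least 10 points. Of the 30 shores higher after induction in the parthenogenetic line, 12 were lower in the biparental line, as were 27.7% of all methylated shores. Of the 37 higher in the biparental line, 4 were lower in the parthenogenetic line, as were 9.65% of all. These counts are small, and whether they exceed what the sizes of the lists give was not tested.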

How the results depend on the processing

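No paired analysis was possible because each group has 1 library. In what follows, values for all 8 comparisons come in this order: pESC against female ESC, ESC-PGCLC against female ESC, pESC-PGCLC against pESC, pESC-PGCLC against ESC-PGCLC, ESC-PGCLC against PGC, pESC-PGCLC against PGC, PGC against female ESC and PGC against pESC. At a threshold of 15 points the shores apart numbered 158, 228, 82, 62, 124, 63, 990, 187, and at 40 points 12, 8, 4, 6, 4, 3, 14, 3. With a member mean of at least 40%, the lower shores numbered 1448, 1515, 1396, 1258, 154, 311, 1596, 1565; the shores 25 points apart were 26 for ESC-PGCLC against female ESC and 7 for pESC-PGCLC against pESC; and 1117 pairs had the shore above its island throughout, all from fewer members. With the overall shift taken out, the lower shores numbered 1423 for pESC against female ESC, 1336 for ESC-PGCLC against female ESC, 933 for ESC-PGCLC against PGC, 1169 for pESC-PGCLC against PGC and 1647 for PGC against female ESC, and those 25 points apart 22 for ESC-PGCLC against female ESC, 29 for PGC against female ESC and 8 for PGC against pESC. Among islands of 30% or more, the shore differed more in 157, 199, 176, 170, 150, 173, 169, 178 of 358 pairs. By the ratio of levels, with 1% added, it did so in 1009 for pESC against female ESC, 982 for pESC-PGCLC against pESC, 946 for pESC-PGCLC against ESC-PGCLC, 1026 for ESC-PGCLC against PGC and 907 for pESC-PGCLC against PGC of 2110 pairs. The other 110 results, from these settings and from CHH levels subtracted, members chosen by the other 3 libraries, 1 member per island, shores at 0% or 100% left out, pairing within 2000 bp and shores overlapping an island left out, stayed within 1.5 times the reported count. The last setting and the alternatives for PGC against the stem cell libraries were chosen after seeing the data. Depth limits single shores most: with no read counts, a level of a few reads cannot be told from a deep one.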
